A study of Mus musculus with 6 samples.

Results

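Genes that ERK signaling switches on, most of which restrain it, were examined in Hepa1-6 tumors with and without sorafenib (Sora). The 10 genes, called feedback regulators below, were Dusp4, Dusp5, Dusp6, Spry1, Spry2, Spry4, Spred1, Spred2, Etv4, and Etv5. They were taken by exact symbol, and all 10 were found among the 26167 genes of the deposited tables. Hepa1-6 is a mouse hepatoma cell line, written Hep1-6 in the sample labels, and the tumors grew under the skin of female C57BL/6J mice bought at 6 to 8 weeks of age. The treated mice were injected into the peritoneum with Sora at 10 mg/kg, 4 times from day 9 to day 15, every other day. There were 3 control tumors, numbered 1, 3, and 4 in the labels, and 3 Sora-treated tumors, numbered 2, 3, and 4. Whether the control mice received the vehicle, and on which day the tumors for RNA were taken, is not given in the sources used here. All tumors came from 1 cell line in a site outside the liver, and no label ties a tumor to a mouse, so p-values measure only the spread between these tumors.

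ERK is the last kinase of the RAS-RAF-MEK-ERK cascade, and Sora is an inhibitor of RAF kinases and of several receptor tyrosine kinases, among them those for VEGF and PDGF. Active ERK induces a small set of genes, and most of their products act back on the cascade. Transcripts of these genes are widely read as a measure of ERK output. The DUSP phosphatases remove phosphate from ERK itself, the Sprouty and SPRED proteins act upstream between receptors and RAF, and Etv4 and Etv5 are ETS transcription factors that carry the signal to further genes.

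Each tumor had between 31073830 and 36205814 counted reads. The deposited count table holds 5 of the 6 tumors, and the counts of Sora-treated tumor 4 were recovered from its FPKM (counts divided by gene length and total count). All recovered values were whole to within 0.001. Applied to each of the other 5 tumors as a check, this step gave back the deposited count of every gene it could reach. CPM below means a gene's reads scaled to the size of its library, with TMM factors. The tests come from edgeR (quasi-likelihood, Benjamini-Hochberg adjustment) on 16513 genes, each of which had 10 counts or more in 3 or more tumors. All 10 feedback regulators passed this filter. The hepatoma marker Afp was present in all 6 tumors, at 655 to 1000.5 CPM. The tumors are bulk tissue, in which fewer cells of a type and less RNA per cell cannot be told apart.

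Of the 10 feedback regulators, 3 rose in Sora-treated tumors at an adjusted p under 0.05 (Spry4, Dusp5, and Dusp4) and 0 fell. Over all genes tested, 1.94% were called higher and 1.34% lower. At an unadjusted p under 0.05, 5 of the 10 were higher and 2 lower (edgeR), where 8.53% of all genes were higher and 8.69% lower. The Sora-treated tumors lay entirely above the control tumors for 6 of the 10 genes and entirely below for 2, against 10.6% and 11.6% of all genes tested. The median log2 fold change of the 10 genes was 0.33, beside -0.00037 over all genes tested. The 10 genes were chosen with earlier results of these data known, so these shares are a description and not a test.

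The bases before the start sites of 3 genes are shown, 1 gene that was called higher (Dusp5), 1 that was higher without a call (Dusp6), and 1 that was lower without a call (Spry1). RefSeq windows of GRCm38.p6 were found for 7 of the 10 genes (not for Dusp4, Etv4, and Spry4). The 250 bases before each start were searched on both strands. The patterns were CCGGAA (1 form of the site bound by ETS factors), TGACG (the CRE core bound by CREB family proteins), TGANTCA (the AP-1 site), and the CArG box. The CArG box is the site of serum response factor, which works with ETS partners that ERK phosphorylates. Capitals mark the matches and the sequences read 5′ to 3′ on the strand of the gene. Dusp5 lies on the plus strand (chr19:53528895-53529144), as do Dusp6 (chr10:99262981-99263230) and Spry1 (chr3:37639697-37639946).
Dusp5: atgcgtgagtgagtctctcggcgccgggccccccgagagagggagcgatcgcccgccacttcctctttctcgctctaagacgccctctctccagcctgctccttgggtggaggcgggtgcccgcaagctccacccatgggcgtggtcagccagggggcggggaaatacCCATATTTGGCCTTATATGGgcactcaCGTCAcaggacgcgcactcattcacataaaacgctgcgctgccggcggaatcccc
Dusp6: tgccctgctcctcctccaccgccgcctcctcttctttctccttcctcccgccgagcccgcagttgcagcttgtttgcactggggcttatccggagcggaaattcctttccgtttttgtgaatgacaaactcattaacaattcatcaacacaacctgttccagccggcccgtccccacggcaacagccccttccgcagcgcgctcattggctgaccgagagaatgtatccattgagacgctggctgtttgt
Spry1: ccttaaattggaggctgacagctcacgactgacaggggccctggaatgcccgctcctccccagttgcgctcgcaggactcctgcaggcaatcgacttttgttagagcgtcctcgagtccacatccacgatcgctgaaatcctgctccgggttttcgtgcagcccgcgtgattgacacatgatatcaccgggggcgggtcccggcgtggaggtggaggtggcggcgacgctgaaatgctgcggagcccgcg

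The Dusp5 window held 2 CArG boxes side by side, starting 82 and 72 bases before the start site, and 1 CRE core starting 55 bases before it. A CArG box was present in 1.47% of the 32851 RefSeq windows of the same length, and a CRE core in 17.77%. The windows of Dusp6 and Spry1 held no match to the 4 patterns searched. The same was true of Spry2, of Spred1, and of both windows of Etv5, whereas Spred2 had 1 CRE core. CCGGAA was in 12.03% and the AP-1 site in 6.75% of all windows. A match is a run of letters and not an observed binding event. Sites outside these bases, and other forms of the sites such as shorter ETS sequences, were not searched.

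Dusp4, Dusp5, and Dusp6 encode dual-specificity phosphatases that inactivate ERK, the first pair in the nucleus and Dusp6 in the cytoplasm. Dusp5 stood at 31.2, 29.3, and 33.2 CPM in control tumors 1, 3, and 4, whereas Sora-treated tumors 2, 3, and 4 had 59.4, 39.2, and 63.3 CPM. Its groups did not overlap, and Sora-treated tumor 3 was the lowest of the treated tumors. The means were 31.2 ± 1.95 and 54.0 ± 12.9 CPM (SD, n = 3), a 1.73-fold rise (log2 fold change 0.79, standard error 0.15, adjusted p = 0.023, edgeR).

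Dusp4 stood at 284, 346, and 297 CPM in control tumors 1, 3, and 4. In Sora-treated tumors 2, 3, and 4 it stood at 429, 394, and 515 CPM, each above the highest control tumor. The mean went from 309 ± 32.7 to 446 ± 62.1 CPM (SD, n = 3), a 1.44-fold rise (log2 fold change 0.53, standard error 0.11, adjusted p = 0.031, edgeR).

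Dusp6, the phosphatase most often used as a readout of ERK activity, did not pass the threshold. It stood at 273, 285, and 286 CPM in control tumors 1, 3, and 4, whereas Sora-treated tumors 2, 3, and 4 had 353, 298, and 395 CPM. The groups did not overlap, but Sora-treated tumor 3 was close to the control tumors, and the spread in the treated group (349 ± 48.8 CPM) was wider than in the control group (281 ± 7.18 CPM; SD, n = 3). In edgeR its log2 fold change of 0.31 (standard error 0.10) had an adjusted p of 0.12.

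**Figure D1:**
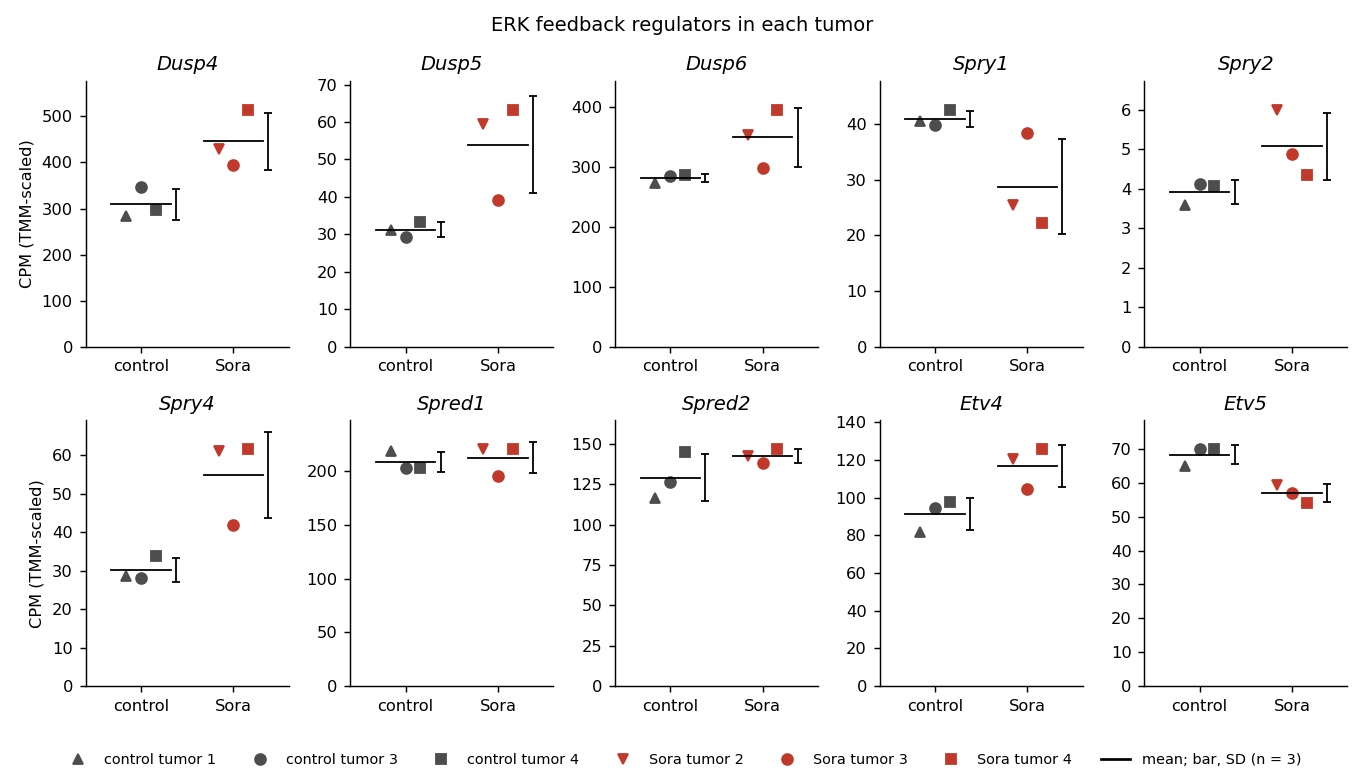
CPM (y axis, from 0, TMM-scaled) of the 10 feedback regulators in the 3 control and 3 Sora-treated tumors, 1 point per tumor with a symbol for each tumor's number, the group mean as a line, and the SD as a bar. Spry4, Dusp5, Dusp4, Dusp6, Spry2, and Etv4 lie higher in every Sora-treated tumor than in any control tumor, Spry1 and Etv5 lie lower, and Spred1 and Spred2 overlap.

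Sprouty proteins are membrane-bound inhibitors that are themselves induced by growth factor signaling. Spry4 had the largest rise of the 10 genes. Its level was 28.7, 28.1, and 33.7 CPM in control tumors 1, 3, and 4, whereas Sora-treated tumors 2, 3, and 4 had 61.1, 41.8, and 61.6 CPM. No treated tumor reached down to the control range. The mean went from 30.2 ± 3.07 to 54.8 ± 11.3 CPM (SD, n = 3), a 1.82-fold rise (log2 fold change 0.86, standard error 0.14, adjusted p = 0.015, edgeR).

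Spry1 had the opposite sign. It stood at 40.5, 39.8, and 42.6 CPM in control tumors 1, 3, and 4, whereas Sora-treated tumors 2, 3, and 4 had 25.5, 38.4, and 22.2 CPM. Tumors 2 and 4 were far below the control range, whereas Sora-treated tumor 3 was just under it. The means were 40.9 ± 1.45 and 28.7 ± 8.52 CPM (SD, n = 3), and the difference did not pass the threshold (log2 fold change -0.51, standard error 0.16, adjusted p = 0.12, edgeR). With 1 tumor left out, its log2 fold change passed the threshold in 1 of 6 edgeR fits, that without Sora-treated tumor 3 (-0.78, adjusted p = 0.0021). In the other 5 fits the adjusted p ranged from 0.17 to 0.39, with a log2 fold change of -0.36 without Sora-treated tumor 4 (edgeR). Exons of Spry1 share 710 bases with Gm42922 on the opposite strand in GENCODE M21, and the use of strand in counting is not stated. Gm42922 itself had 19 to 38 reads per tumor, against 737 to 1553 for Spry1. Exons of Dusp5 share 547 bases with an antisense transcript in the same annotation, and no other of the 10 genes overlaps a neighbor.

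Spry2 had few reads, with 115 to 188 reads per tumor. It stood at 3.58, 4.11, and 4.08 CPM in the controls, against 6.01, 4.88, and 4.35 CPM after Sora, so the groups touched closely without overlap. The difference was not past the threshold (log2 fold change 0.37, standard error 0.20, adjusted p = 0.38, edgeR).

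Spred1 and Spred2 encode relatives of the Sprouty proteins that restrain the activation of RAF, and Spred1 works together with neurofibromin. Neither was past the threshold. Spred1 stood at 219, 203, and 202 CPM in the controls, against 221, 196, and 221 CPM after Sora, and the groups overlapped (log2 fold change 0.03, standard error 0.08, adjusted p = 0.89, edgeR). Spred2 stood at 116, 126, and 145 CPM in the controls, against 143, 138, and 147 CPM after Sora, also with overlap (log2 fold change 0.14, standard error 0.09, adjusted p = 0.46, edgeR). For both genes the change was smaller than 2 standard errors.

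Etv4 and Etv5 belong to the PEA3 group of ETS factors, and their log2 fold changes had opposite signs. Etv4 stood at 81.9, 94.4, and 97.7 CPM in the controls, against 121, 104, and 126 CPM after Sora (log2 fold change 0.36, standard error 0.09, adjusted p = 0.066, edgeR). Etv5 stood at 65.0, 70.0, and 69.8 CPM in the controls, against 59.5, 57.0, and 54.2 CPM after Sora (log2 fold change -0.26, standard error 0.07, adjusted p = 0.077, edgeR). Neither pair of groups overlapped, and neither difference passed the threshold.

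Ratios of counts within a tumor do not depend on the scaling between libraries. The 2 pairs given here were chosen after their values were seen and are a description without a test. The count of Spry4 over that of Spry1 was 0.709, 0.706, and 0.791 in the controls, against 2.39, 1.09, and 2.77 after Sora (tumors 2, 3, and 4). The lowest ratio after Sora, in tumor 3, was above the highest control ratio. Since the genes differ in length, only the difference between tumors can be read from these ratios, not which gene was more abundant. The count of Etv4 over that of Etv5 was 1.26, 1.35, and 1.40 in the controls, against 2.03, 1.83, and 2.32 after Sora, again without overlap.

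Sora-treated tumor 3 had moved least from the control mean, in the direction of the fitted change, in 8 of the 10 genes, the exceptions being Spry2 and Etv5. The same held in 49.2% of all genes tested. Without this tumor 6 of the 10 genes were called, Spry4 (log2 fold change 1.02), Dusp5 (0.97), Dusp4 (0.61), Etv4 (0.43), and Dusp6 (0.41) as higher and Spry1 as lower, whereas 3.52% of all genes were called higher and 3.5% lower. Without Sora-treated tumor 4, which leaves only deposited counts, 0 of the 10 were called in edgeR, where 0.0245% of all genes were called higher and 0.00613% lower, and 7 of the 10 had an unadjusted p under 0.05 (5 higher and 2 lower), where 6.12% of all genes were higher and 5.8% lower. The adjusted p of Spry4, Dusp5, and Dusp4 were then 0.094, 0.12, and 0.13 (edgeR), at log2 fold changes of 0.77, 0.66, and 0.42. The rise of Spry4 was called in 4 of the 6 edgeR fits that leave out 1 tumor, that of Dusp4 in 2, and that of Dusp5 in 1.

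**Figure D2:**
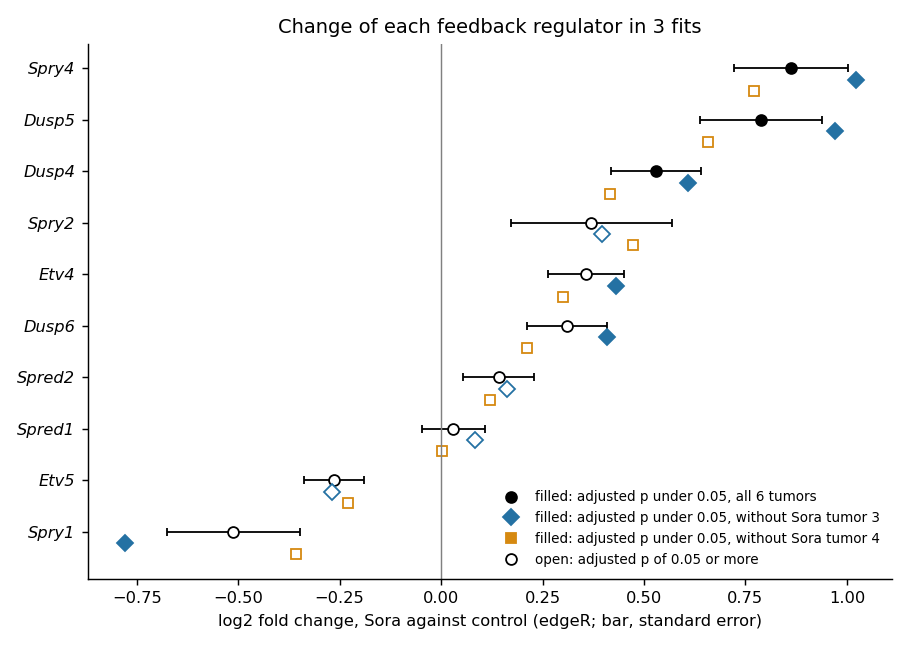
Log2 fold change of Sora-treated against control tumors (x axis) of the 10 feedback regulators (y axis) by edgeR with all 6 tumors (circles, bars are standard errors), without Sora-treated tumor 3 (diamonds), and without Sora-treated tumor 4 (squares), filled where the adjusted p is under 0.05. Every gene keeps its sign in the 3 fits, 3 genes are filled with all tumors, 6 without tumor 3, and none without tumor 4.

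DESeq2, which the study used for its own comparison, called 7 of the 10 genes with all 6 tumors. Spry4, Dusp5, Dusp4, Etv4, and Dusp6 were higher, and Spry1 and Etv5 were lower, with adjusted p from 0.010 for Etv4 to 0.045 for Etv5 among the 4 genes that edgeR did not call. Of the 15490 genes to which DESeq2 gave an adjusted p, it called 4.0% higher and 3.71% lower. On the 5 deposited columns of counts DESeq2 called Spry4 (adjusted p = 0.00063), Dusp5 (0.0061), and Dusp4 (0.0073), the genes that edgeR called with 6 tumors. Of the 15981 genes with an adjusted p in that DESeq2 fit, 1.65% were called higher and 1.35% lower. None of the 10 genes changed by 2-fold in the fit with all tumors.

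Levels of different genes were compared per gene length, in FPKM. In control tumors the order of mean FPKM was Dusp6 (87.8 ± 1.51), Dusp4 (52.8 ± 4.24), Spred1 (29.6 ± 1.96), Etv4 (20.3 ± 1.59), Dusp5 (17.3 ± 1.37), Spry1 (16.5 ± 0.825), Etv5 (13.9 ± 0.370), Spred2 (3.42 ± 0.383), Spry4 (2.92 ± 0.321), and Spry2 (0.887 ± 0.0517; SD, n = 3). Among neighbors in this order, Dusp5 and Spry1 overlapped, and so did Spred2 and Spry4. In Sora-treated tumors Dusp5 (29.5 ± 6.71 FPKM) stood level with Spred1 (29.9 ± 1.77 FPKM), and Spry1 (11.5 ± 3.59 FPKM) with Etv5 (11.5 ± 0.757 FPKM). Spry4 (5.25 ± 1.03 FPKM) was above Spred2 (3.74 ± 0.0554 FPKM) in every Sora-treated tumor.

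The FPKM order depends on the gene lengths behind the deposited values. For Spred2 the files imply a length of 37937 bases, whereas the exons of GENCODE M21 cover 4619 bases, a ratio of 8.21. The ratio was 2.14 for Dusp4, 2.13 for Spry2, and 2.18 for Spry4, and between 0.73 and 1.45 for the other 6 genes. With the GENCODE lengths the control mean of Spred2 would be 28.1 FPKM in place of 3.42, close to Spred1 and Etv4, and Dusp4 (113 FPKM) would stand above Dusp6 (90.1 FPKM). The order in Sora-treated tumors would also turn, with Spred2 (30.7 FPKM) above Spry4 (11.5 FPKM), Dusp5 (21.7 FPKM) below Spred1 (31.2 FPKM), and Spry1 (9.87 FPKM) below Etv5 (13.8 FPKM). Fold changes between groups do not depend on these lengths.

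**Figure D3:**
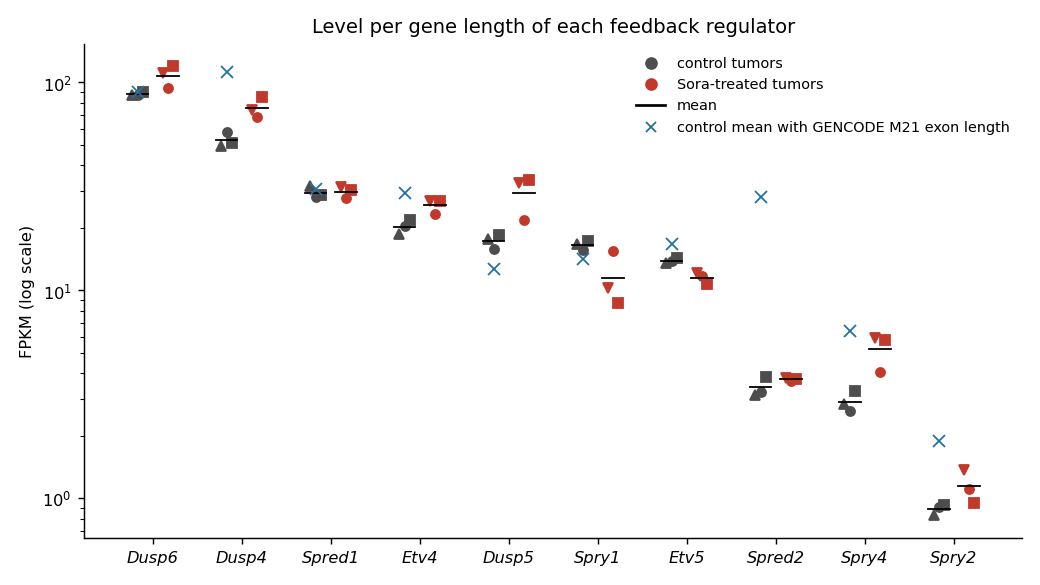
FPKM (y axis, log scale) of the 10 feedback regulators in control and Sora-treated tumors, 1 point per tumor with lines at the means, ordered by the control mean, and with crosses where the control mean would lie with GENCODE M21 exon lengths. Dusp6 and Dusp4 lead in both groups, Spry2 is last, and the cross of Spred2 lies 8.21 times above its deposited control mean.

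The genes whose levels ran most alike over the 6 tumors were found among the 14112 other genes with a mean of at least 1 CPM, by the root mean square difference of log2(CPM + 1) centered on each gene's mean. For Spry4 the closest gene was Dusp5, at 0.068, followed by Gm36696 and Tiparp at 0.078 and 0.079. For Dusp5 the closest were Mirt1 (0.055), Gprc5a (0.056), and Hmga1 (0.065), and Spry4 was the fourth. Bmp4, Tsc22d1, and Gadd45a were closest to Dusp4 (0.043 to 0.045), and Bcl2l1, Snhg15, and Pals2 to Dusp6 (0.025 to 0.037). Etv4 was the feedback regulator nearest to both Dusp4 and Dusp6, in places 175 and 118. These distances describe 6 tumors in 2 groups, and a shared rise in the treated group alone makes them small.

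Of 21 measured genes among relatives of these families and other inhibitors of receptor and ERK signaling, 2 rose and 0 fell at an adjusted p under 0.05 (edgeR), beside 1.94% and 1.34% of all genes. Their median log2 fold change was 0.20, beside -0.00037 over all genes tested. Dusp1, a phosphatase of stress kinases and ERK that is induced early after stimulation, rose from 64.5 ± 10.3 to 107.5 ± 9.77 CPM (SD, n = 3; edgeR log2 fold change of 0.74 at an adjusted p of 0.013). Spred3, the third SPRED gene, rose from 14.6 ± 1.47 to 22.7 ± 2.82 CPM (SD, n = 3; edgeR log2 fold change of 0.64 at an adjusted p of 0.021). Spry3 was not analysed here.

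Among 24 other genes that ERK signaling induces, 9 rose and 0 fell (edgeR), beside the same shares of all genes, with a median log2 fold change of 0.37. Areg, an EGF receptor ligand, rose from 16.4 ± 3.23 to 57.04 ± 20.8 CPM (SD, n = 3; edgeR log2 fold change of 1.80 at an adjusted p of 0.0087), and Hbegf, another such ligand, from 71.3 ± 7.14 to 146 ± 37.5 CPM (SD, n = 3; edgeR log2 fold change of 1.04 at an adjusted p of 0.013). The others were the transcription factor genes Fosb (log2 fold change 0.71), Junb (0.64), Egr1 (0.58), and Fosl2 (0.34), the receptor gene Epha2 (0.53), the urokinase receptor gene Plaur (0.62), and Ier3 (0.42), with adjusted p from 0.018 to 0.043 (edgeR). Each of these genes was higher in every Sora-treated tumor than in any control tumor. In DESeq2, 12 of the 24 were called higher and 0 lower, beside 4.0% and 3.71% of the genes with an adjusted p there. Of 21 genes of the cascade itself, 1 rose and 0 fell, beside 1.94% and 1.34% of all genes, and the median log2 fold change was -0.0026. No difference between the lists was tested, and the lists were chosen with earlier results of these data known. The cascade gene called was Shoc2, a scaffold that helps to activate RAF. It rose from 135 ± 12.7 to 175 ± 10.1 CPM (SD, n = 3; edgeR log2 fold change of 0.38 at an adjusted p of 0.041). With 1 tumor left out, Shoc2 was called in 1 of 6 edgeR fits, that without Sora-treated tumor 3. Areg, Hbegf, and Dusp1 were called in 5 of these 6 fits. Spred3, Egr1, Junb, Ier3, Epha2, and Plaur were called in 2, and Fosb and Fosl2 in 1. At an unadjusted p under 0.05, the counts were 7 of 21 related, 13 of 24 output, and 2 of 21 cascade genes, all higher, where 8.53% of all genes were higher. The share of cascade genes (9.52%) was near that of all genes. In the edgeR fit without Sora-treated tumor 4, 0 genes of these 3 lists were called (5, 12, and 3 at an unadjusted p under 0.05, all higher, beside 6.12% of all genes), at adjusted p of 0.058 for Areg, 0.070 for Hbegf, 0.085 for Dusp1, 0.10 for Spred3, and 0.19 for Shoc2.

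**Figure D4:**
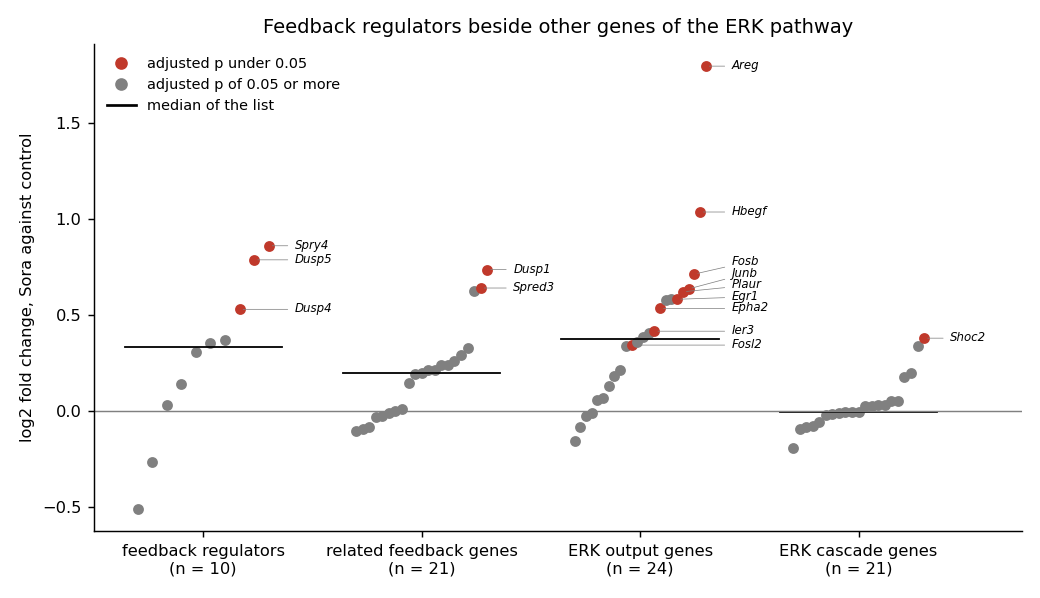
Log2 fold change of Sora-treated against control tumors (y axis) for the 10 feedback regulators, 21 related feedback genes, 24 other ERK output genes, and 21 genes of the ERK cascade, 1 point per gene ordered within its list, red and named where the adjusted p is under 0.05, with a line at the list's median. The medians are 0.33, 0.20, 0.37, and -0.0026, and all named genes lie above 0.

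Markers of other cell types were measured in the same tumors, since immune, stromal, and tumor cells can all express these regulators. The summed CPM of 9 fibroblast markers was 7807 to 8091 in control and 5560 to 6988 in Sora-treated tumors, with 8 of 9 genes lower. For 8 T cell markers it was 185 to 210 and 148 to 158 CPM, with 8 of 8 lower, and for 8 macrophage markers 1765 to 2127 and 1480 to 1736 CPM, with 8 of 8 lower. For 7 neutrophil markers it was 67.3 to 80.5 CPM in control and 99.6 to 155 CPM in Sora-treated tumors, with 5 of 7 higher. These 4 sums did not overlap between the groups, and no gene of any list was at 0 in all tumors. The fibroblast markers with the highest control CPM were Col1a1, Col1a2, and Col3a1, with log2 fold changes of -0.42, -0.47, and -0.42. The other fibroblast markers had log2 fold changes from -0.22 (Lum) to 0.03 (Dcn), and their share in the fall of the sum was not tested. The sums of hepatoma (8378 to 10837 and 9257 to 9962 CPM), endothelial (301 to 343 and 239 to 324 CPM, 8 of 10 lower), and proliferation markers (902 to 1157 and 978 to 1032 CPM, 3 of 5 lower) overlapped, as did those of B cells (4 of 4 lower). For skeletal muscle, with 6 of 6 markers higher, the sums were 177 to 247 and 213 to 281 CPM. For keratinocytes, with 7 of 7 markers higher, they were 1040 CPM in control tumor 1, 309 and 388 CPM in control tumors 3 and 4, and 656 to 932 CPM after Sora, so that control tumor 1 alone made the groups overlap. Of 10 hepatoma markers, 7 were higher and 3 lower. In edgeR, Hnf4a (log2 fold change 0.80, adjusted p = 0.013) and Apoa1 (1.03, adjusted p = 0.047) rose and Alb fell (-0.55, adjusted p = 0.041). In the other marker lists, the T cell gene Cd6 (-0.58, adjusted p = 0.039) and the macrophage gene Mertk (-0.45, adjusted p = 0.031) fell and the neutrophil gene S100a9 (1.21, adjusted p = 0.042) rose (edgeR). These 6 were all the marker genes called, where 1.94% of all genes tested were called higher and 1.34% lower. By sign alone, 8244 of all genes tested were higher and 8269 lower. The part of these cell types in the levels of the feedback regulators was not tested.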

How the data were processed

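RNA-seq of 3 control and 3 Sora-treated tumors was analyzed, 1 library per tumor. The authors deposited raw counts per gene for 5 tumors and FPKM for 6. Both the paper and the submitters' processing notes name DESeq2. The paper otherwise names Bowtie2, GRCm38, and an expectation maximization algorithm, and the notes list fastp, HISAT2, HTSeq, R 3.2.0, and GRCm39. Of the 26167 symbols, 1348 are not in RefSeq's table of GRCm38.p6, so the build of the counts is uncertain and coordinates are given for RefSeq promoter windows alone. Annotation, strand, and filters are not given in the sources used here.

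Gene lengths followed from counts and FPKM, and the counts of Sora-treated tumor 4 were recovered with them. Its 342 genes without a known length, with 512 reads (0.0015%), were left at 0. Counts were fitted across all genes with edgeR 4.0.16 in R 4.3.3 (TMM, robust=FALSE), and the standard error is the log2 fold change divided by the square root of F. The scripts were tested on simulated data. Alternatives were DESeq2 1.42.0, limma 3.58.1 (voom, or log2 of FPKM with 1 or 0.1 added, filtered at 1 FPKM in 3 tumors, and once unfiltered), other scalings and filters, the replicate number as a block, and leaving out each tumor. DESeq2 without Sora-treated tumor 4 was added after the data were seen.

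The 10 members, the other gene lists, and the marker lists, written from general knowledge, were chosen with earlier results of these data known. The text names all members, each gene of the 3 pathway lists with an adjusted p under 0.05, and the 3 genes most like Dusp6 and like each member called. Counting error at these depths is small except for Spry2.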

Additional observations from a re-analysis of the deposited data

How the results depend on the processing

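Of 178 refits of single feedback regulators, 150 kept the direction and the side of the threshold, 18 lost a call, 9 gained one, and 1 turned sign (Spred1, -0.00073 in DESeq2 without Sora-treated tumor 4). All 18 lost calls were in the 3 genes called in the main fit, Dusp5 in 9 of 18 settings, Dusp4 in 6, and Spry4 in 3. Spry2 was under the FPKM filter and has no value there. The 3 feedback regulators called became 7 in DESeq2, 5 without a filter on counts, 1 with the replicate block, and 0 with log2(FPKM + 1) of all genes, which called 0 genes in all (limma, 3115 at an unadjusted p under 0.05). Their median of 0.33 became 0.21 with the replicate block and 0.23 with log2(FPKM + 1) of all genes. The 543 genes called over all became 1194 in DESeq2, 1147 without a filter, 125 with the replicate block, 286 with log2(FPKM + 1), and 252 with log2(FPKM + 0.1). Related genes called (2) became 4 in DESeq2 and 1 with the block or either FPKM setting, cascade genes (1) became 2 in DESeq2 and without a filter and 0 with the block or either FPKM setting, and output genes (9) became 5 with log2(FPKM + 0.1) and 2 with the block. The causes were not tested. With 1 tumor left out, the counts called ranged from 0 to 6 for feedback regulators, 0 to 4 for related, 0 to 2 for cascade, 0 to 12 for output, and 5 to 1145 for all genes, and the median from 0.26 to 0.40. The highest values were those without Sora-treated tumor 3. The lowest were those without Sora-treated tumor 4, although 0 cascade genes were called in 5 of the 6 fits. Without control tumor 1, 0 feedback regulators were called (7 at an unadjusted p under 0.05, beside 14.4% of all genes), Spry4 having an adjusted p of 0.050 (edgeR). With the replicate block Spry4 was the one called. Numbers 1 and 2 each occur in 1 tumor alone, so the change fitted with the block rests on tumors 3 and 4 of each group. Its counts and median therefore do not compare the same tumors as the main fit. Numbers 3 and 4 are shared by the groups, but same-numbered tumors did not deviate together (correlations over genes of -0.031 and -0.079), so the numbers were not taken as pairs.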
